A study of Rattus norvegicus with 24 samples.

Results

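The 10 genes described here mark successive steps of the oligodendrocyte lineage, the cells that make myelin in the brain: Pdgfra, Cspg4, Olig1, Olig2, Sox10, Nkx2-2, Gpr17, Bcas1, Enpp6 and Myrf. They were found by gene name among the reference genes of the deposited tables, where each name occurred once, and they are 10 of 32883 reference genes. The RNA came from the frontal cortex of 24 adult male Sprague-Dawley rats, taken 24 h after inhalation of an aerosol of tungsten particles. The Control group breathed 0 mg/m3, the Low group 5 mg/m3 and the High group 80 mg/m3, with 8 rats in each, and no group carried a transgene or another treatment in the labels. Each gene was measured as coverage, the mean read depth per base of the gene, divided by the sum over all reference genes of the same rat and multiplied by 1000000 (scaled coverage). Because coverage is per base, levels were compared between genes as well as between rats. A comparison between genes rests on the annotated extent of each gene.

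In the adult cortex, oligodendrocyte precursors are dividing cells that carry the receptor for platelet-derived growth factor (Pdgfra) and the proteoglycan NG2 (Cspg4) on their surface. When a precursor commits to differentiation it loses these proteins, passes through a short stage marked by Gpr17, Bcas1 and Enpp6, and then wraps axons with myelin under the control of the transcription factor Myrf. Olig1, Olig2, Sox10 and Nkx2-2 are transcription factors of the lineage, and Olig2 and Sox10 are present from the precursor to the mature cell.

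Properties of the tables and of single libraries bear on every value below. The Low tables list 0 loci assembled from the reads, while the Control tables list 46334 to 159573 and those of High list 50235 to 64010, so that in any comparison with Low the exposure and the kind of table cannot be told apart. The rats labelled Control 49 and Low 57 stood apart over all genes: 1597 and 1147 of the 15644 genes tested differed by more than 1 on the log2 scale from the median of the other rats of their group, against 78 to 719 in the other 22 rats, and their differences correlated with each other (r = 0.70 across genes). The summed coverage of the reference genes, in units of 1000000, lay between 1.67 and 2.82 for Control and between 1.64 and 3.07 for Low. For High it lay between 1.77 and 2.67. The paper states a nominal depth per sample, but the tables hold no read counts, so the depth behind a value is unknown. All 7 neuron markers and all 9 astrocyte markers passed the filter, with summed scaled coverage of 1514 to 2621 and 2516 to 3988 over the 24 rats. In tissue RNA, fewer cells of a type and less RNA per cell cannot be told apart.

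The bases just before the start of a gene are shown for 1 gene of each of 3 steps, a precursor receptor, a lineage transcription factor and a gene of committed precursors, so that each of these steps is represented. They were taken from RefSeq (build GRCr8), where 6 of the 10 genes matched, and run 5′ to 3′ over the 250 bases before the start. Capitals mark matches, on either strand, to 4 motifs searched: CAGCTG, an E-box that basic helix-loop-helix factors such as the Olig proteins can bind, ACAAAG and ACAATG, of the kind that Sox factors bind, and TATAAA.
Pdgfra, chr14:33408517-33408766, minus strand: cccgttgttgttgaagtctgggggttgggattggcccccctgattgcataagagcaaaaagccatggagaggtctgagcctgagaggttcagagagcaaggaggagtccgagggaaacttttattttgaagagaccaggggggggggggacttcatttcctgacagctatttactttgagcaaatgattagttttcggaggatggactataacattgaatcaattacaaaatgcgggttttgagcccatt
Olig2, chr11:43961335-43961584, plus strand: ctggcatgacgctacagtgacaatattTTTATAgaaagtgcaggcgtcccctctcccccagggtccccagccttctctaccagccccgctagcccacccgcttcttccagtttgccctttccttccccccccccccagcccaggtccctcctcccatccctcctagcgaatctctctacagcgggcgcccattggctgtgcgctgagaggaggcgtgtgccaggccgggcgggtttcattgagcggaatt
Enpp6, chr16:52026729-52026978, minus strand: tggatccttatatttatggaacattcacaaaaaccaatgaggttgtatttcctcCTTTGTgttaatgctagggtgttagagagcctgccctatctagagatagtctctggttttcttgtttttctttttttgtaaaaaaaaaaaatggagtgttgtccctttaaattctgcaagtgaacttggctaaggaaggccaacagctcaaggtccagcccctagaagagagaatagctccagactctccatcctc
The Pdgfra bases held none of these letters, Olig2 held TATAAA and Enpp6 held ACAAAG, both read on the opposite strand. Of the 6 genes matched, 0 held CAGCTG, 1 held ACAAAG, 0 held ACAATG and 1 held TATAAA, while the shares of all 33469 RefSeq stretches of the same length were 11.97%, 16.3%, 11.1% and 12.9%. The GC content was 47.2% for Pdgfra, 62.0% for Olig2 and 40.0% for Enpp6, against a median of 51.2% over all of them.

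The levels of the 10 genes in Control rats spanned a wide range. Bcas1 was highest with a scaled coverage of 163 ± 19.6 (SD, n = 8), followed by Olig1 with 107 ± 8.34, Myrf with 37.2 ± 7.06, Sox10 with 36.8 ± 5.23, Gpr17 with 29.9 ± 10.02 and Pdgfra with 29.6 ± 6.80. Olig2 with 22.6 ± 3.25, Cspg4 with 9.39 ± 1.88, Enpp6 with 5.64 ± 1.59 and Nkx2-2 with 4.898 ± 0.613 were lowest. Bcas1 stood above Olig1, Olig1 above Myrf and Olig2 above Cspg4 with no overlap between rats. As loci assembled from the reads, Olig1 (6.05 to 176) overlapped both Bcas1 (59.5 to 302) and Myrf (30.6 to 50.7) in Control. Olig1 was at 6.05 in Control 49. It was at 48.7 and 35.6 in Control 52 and Control 53, where 1 locus stood for Olig1 and Olig2. In the other Control rats it was at 138 to 176, above Myrf. The loci of Olig2 (24.3 to 48.7) and Cspg4 (9.01 to 16.5) did not overlap. Among the reference genes, the ranges of the other neighbours in this order overlapped. Gpr17 exceeded Pdgfra in 5 of 8 rats and Myrf exceeded Sox10 in 6 of 8. Among the 15644 genes tested, the mean level of Bcas1 over all rats lay at percentile 95.03 and that of Nkx2-2 at percentile 23.1.

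**Figure D1:**
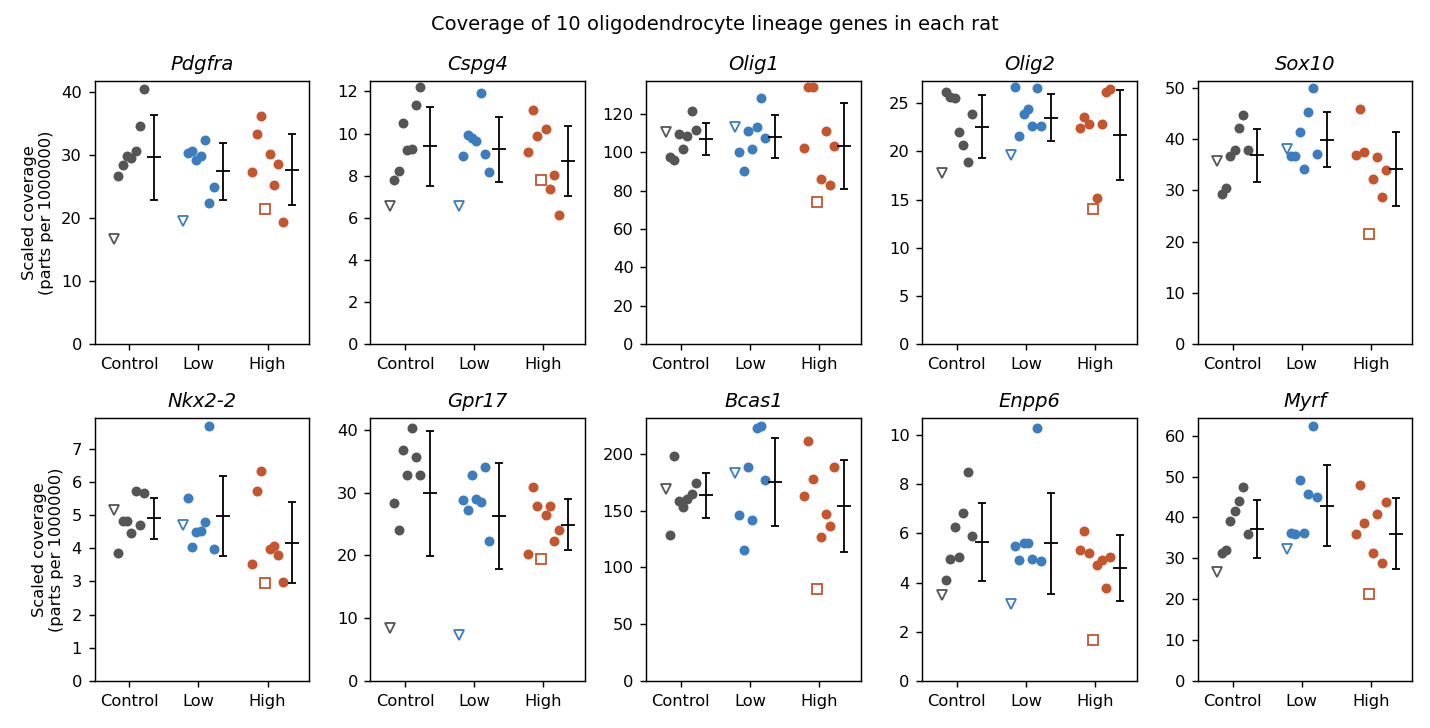
Scaled coverage (parts per 1000000 of the coverage of all reference genes, y axis) of each of the 10 genes in the 8 rats of the Control, Low and High groups (x axis), with the mean and SD of each group as a bar. Open triangles mark Control 49 and Low 57 and open squares mark High 68. The groups overlap for all 10 genes, and the open triangles of Gpr17, at 8.41 and 7.29, lie far under the other rats of their groups.

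None of the 10 genes passed the test for a difference between groups, which was an adjusted p under 0.05 in limma. For Low against Control 0 of 10 passed, where 6.11% of all genes tested were called. For High against Control 0 of 10 passed, where 0% were called (0 of 15644 genes, also 0 with exact Wilcoxon rank-sum tests). For Low against High 0 of 10 passed, where 11.7% were called. At an unadjusted p under 0.05 the count was again 0 of 10 in each comparison, by limma and by exact Wilcoxon tests, where limma put 18.4%, 2.11% and 29.1% of all genes under that value and the Wilcoxon tests 17.4%, 5.67% and 33.3%. No gene of the set separated 2 groups without overlap, as 1.53% of all genes tested did for Low against Control, 0.00639% for High against Control and 2.26% for Low against High.

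**Figure D2:**
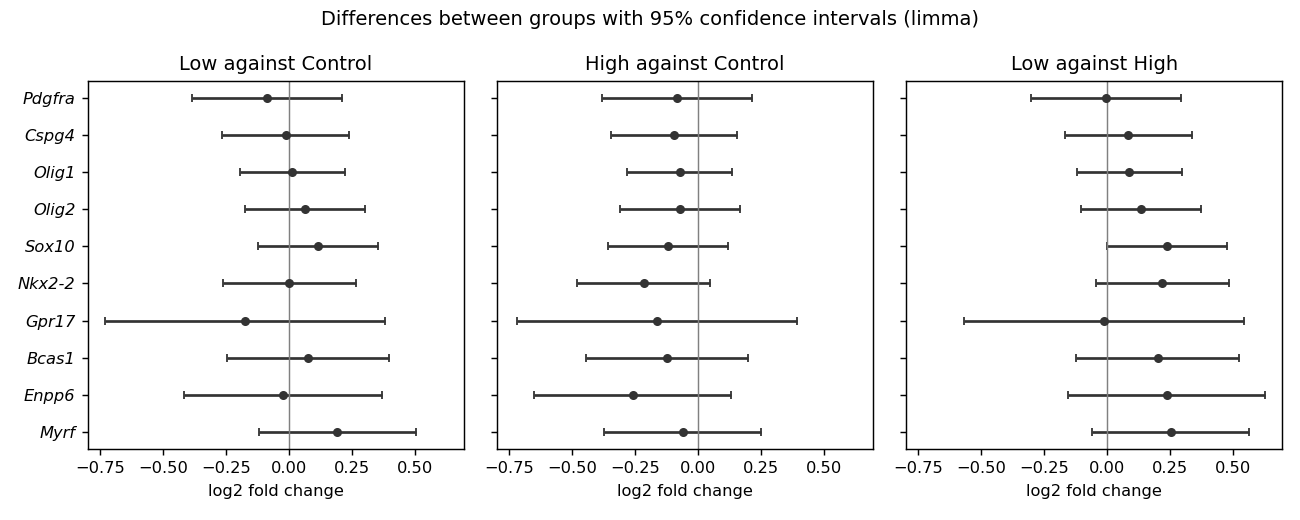
Difference of each gene between 2 groups on the log2(scaled coverage + 1) scale (x axis) with its 95% confidence interval from limma, for Low against Control, High against Control and Low against High (n = 8 rats per group). All 30 intervals include 0, and all 10 points of High against Control lie to the left of 0, between -0.26 and -0.06.

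Pdgfra (ENSRNOG00000002244, chromosome 14, 35527927 to 35581031, minus strand of the tables' build) encodes the receptor through which platelet-derived growth factor keeps precursors dividing. Its scaled coverage ran from 16.6 to 40.5 over the Control rats (median 29.7), while those of Low lay between 19.6 and 32.3 (29.5) and those of High between 19.4 and 36.2 (27.9). The lowest rats were Control 49, Low 57 and High 72, and the ranges overlapped nearly throughout. The log2 difference was -0.09 (SE 0.14, adjusted p = 0.776) for Low against Control and -0.08 (SE 0.14, adjusted p = 0.999) for High against Control. The 95% interval of the latter, from -0.38 to 0.21, holds a fold between 0.768 and 1.16. Both differences moved with single rats, to -0.20 and -0.19 without Control 49 and to -0.02 and -0.02 without Control 56. With libraries 56 to 62 as a covariate, Low against Control was -0.31 (SE 0.17, adjusted p = 0.610). These libraries are Control 56 and Low 57 to Low 62, with no High rat, so this covariate largely follows the Low group. A 70-base gene without a functional name, AABR07014881.1, lies within Pdgfra on the same strand. Its scaled coverage was 1.59 to 11.9 in Control and 4.91 to 11.3 in High but 0.0912 to 0.186 in Low, and whether this touches the value of Pdgfra was not tested.

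Cspg4 (ENSRNOG00000017208, chromosome 8, 61532465 to 61567510, plus strand) encodes NG2, which pericytes also carry. It was lower than Pdgfra, at 6.57 to 12.2 in Control rats (median 9.24), at 6.57 to 11.9 in those of Low (9.34) and at 6.13 to 11.1 in those of High (8.57). The same 3 rats, Control 49, Low 57 and High 72, were the lowest of their groups. The log2 difference was -0.01 (SE 0.12) for Low against Control and -0.10 (SE 0.12) for High against Control, both far from the threshold.

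The transcription factors of the lineage are given next. Olig1 (ENSRNOG00000028648, chromosome 11, 31428358 to 31430517, plus strand) was at 95.9 to 121 in Control rats (median 109), at 90.2 to 128 in those of Low (109) and at 74.2 to 134 in those of High (103). Its coefficient of variation was 7.80% in Control and 21.7% in High, where High 66 and High 67 were highest and High 68 was lowest. Its neighbour Olig2 (ENSRNOG00000028658, chromosome 11, 31389514 to 31392890, plus strand), which specifies the lineage, was at 17.8 to 26.2 in Control rats (median 22.9), at 19.6 to 26.7 in those of Low (23.3) and at 14.0 to 26.5 in those of High (22.9). In High, Olig2 was 14.0 and 15.2 in High 68 and High 69 and at least 22.4 in the other 6 rats. The log2 differences for High against Control were -0.07 (SE 0.10) for Olig1 and -0.07 (SE 0.12) for Olig2.

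Sox10 (ENSRNOG00000011305, chromosome 7, 120393254 to 120403523, minus strand), which activates myelin genes together with Myrf, had the smallest p of the set in limma with all rats. It was at 29.2 to 44.5 in Control rats (median 37.3), at 34.2 to 49.8 in those of Low (37.5) and at 21.4 to 45.9 in those of High (35.2). The log2 difference of Low against High was 0.24 (SE 0.12, 95% interval -0.00078 to 0.47, unadjusted p = 0.0507, adjusted p = 0.173), and it was 0.15 without High 68. Sox10 lies within AC096473.3 on the opposite strand, whose scaled coverage was at most 1.27 in any rat. Nkx2-2 (ENSRNOG00000012728, chromosome 3, 141408798 to 141411170, minus strand), a repressor that helps precursors begin to differentiate, was at 3.86 to 5.71 in Control rats (median 4.82), at 3.99 to 7.69 in those of Low (4.61) and at 2.95 to 6.31 in those of High (3.89). In High, 4 rats lay under the lowest Control rat, while High 66 and High 67 lay above the highest. The log2 difference of High against Control was -0.22 (SE 0.13, 95% interval -0.48 to 0.05, adjusted p = 0.999).

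Gpr17 (ENSRNOG00000025745, chromosome 18, 24734330 to 24735349, minus strand) encodes a receptor of committed precursors that holds back their maturation. With all rats it had the widest spread within groups of the 10 genes, an SD of 0.57 on the log2 scale at percentile 92.9 of all genes tested. This rested on Control 49 and Low 57, since without them the SD was 0.22, at percentile 64.2, and Enpp6 had the widest with 0.36. In Control its scaled coverage was 8.41 in Control 49 and 24.1 to 40.3 in the other 7 rats. In Low it was 7.29 in Low 57 and 22.3 to 34.1 in the other 7. In High it ran from 19.4 to 30.9, with a median of 25.2 against 32.8 in Control. With all rats the log2 difference of High against Control was -0.16 (SE 0.27, adjusted p = 0.999).

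Without Control 49 and Low 57, the mean of Gpr17 was 32.9 ± 5.41 in Control (n = 7), 29.0 ± 3.85 in Low (n = 7) and 24.9 ± 4.06 in High (n = 8), and the range of High, 19.4 to 30.9, still overlapped that of Control, 24.1 to 40.3. The log2 difference of High against Control was then -0.39 (SE 0.11, unadjusted p = 0.00157, adjusted p = 0.0563), which missed the threshold. It was the only 1 of the 10 genes under an unadjusted p of 0.05 in that fit, where 15.8% of all genes were under that value and 2.49% (390 genes, 383 of them lower in High) passed the adjusted threshold. Leaving out Control 49 alone gave the same difference with an adjusted p of 0.514. The choice of these 2 libraries was made after the data had been seen, over all genes and not from Gpr17. Gpr17 lies within Lims2 on the opposite strand. The scaled coverage of Lims2 was 0.633 in Control 49 and 1.34 in Low 57, far under that of Gpr17 in the same rats.

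In Control 49 and Low 57, Bcas1 was not low, and Enpp6, at 3.49 and 3.12, was the lowest of its group by a smaller margin than Gpr17. Bcas1 (ENSRNOG00000012906, chromosome 3, 167957994 to 168033457, minus strand), expressed by cells that are starting to myelinate, was at 129 to 198 in Control rats (median 163), at 115 to 225 in those of Low (180) and at 81.1 to 212 in those of High (155). High 68 was the lowest and Low 63 the highest of all 24 rats. The log2 differences were 0.07 (SE 0.16) for Low against Control and -0.13 (SE 0.16) for High against Control. Without High 68 the latter was -0.0012, and the former was 0.02 without Low 63 and 0.16 without Low 59. Enpp6 (ENSRNOG00000009660, chromosome 16, 48315914 to 48437242, minus strand), a choline phosphodiesterase of newly formed oligodendrocytes, was at 3.49 to 8.49 in Control rats (median 5.47), at 3.12 to 10.3 in those of Low (5.23) and at 1.68 to 6.10 in those of High (4.98). It had the largest difference of the set for High against Control, -0.26 (SE 0.19, 95% interval -0.65 to 0.13, adjusted p = 0.999), and this was -0.12 without High 68.

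Myrf (ENSRNOG00000028274, chromosome 1, 226260558 to 226292480, minus strand) was at 26.6 to 47.5 in Control rats (median 37.4), at 32.4 to 62.3 in those of Low (40.5) and at 21.3 to 47.9 in those of High (37.3). Its log2 difference was 0.19 for Low against Control (SE 0.15, 95% interval -0.12 to 0.50, adjusted p = 0.526) and -0.06 for High against Control (SE 0.15). The highest rat was Low 63 and the lowest High 68, as for Bcas1 and Enpp6.

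Over the set, the median log2 difference was 0.01 for Low against Control, where that of all genes was 0.06, and 6 of 10 genes were positive. For High against Control all 10 were negative with a median of -0.11, where that of all genes was -0.03. All 10 were also negative with median-of-ratios scaling (median -0.07) and with a sum without mitochondrial genes (median -0.09). In the deposited FPKM and TPM columns 9 of 10 were negative. With coverage used as deposited, not corrected for depth, 8 of the 10 were positive. There the median of all genes moved to 0.14, although all 10 still lay under that median. The common sign depended on High 68: without that rat 2 of the 10 were positive, and 4 of 10 lay above the median of all genes. The median of the set was then -0.03, against -0.02 for all genes. For Low against High the median was 0.17, where that of all genes was 0.09, and 8 of 10 were positive. Without High 68 the median of the set was 0.07 and that of all genes 0.08. With coverage as deposited 4 of 10 were positive (median -0.05, where that of all genes was -0.12). With median-of-ratios scaling 6 of 10 were positive (median 0.07, where that of all genes was 0.003). Under both settings 6 of 10 lay above the median of all genes. Low against Control and High against Control share the Control rats, so their signs are not independent.

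The FPKM column gave another picture for Low. There 9 of the 10 genes, all but Gpr17, passed the threshold as higher in Low than in Control, and the same 9 as higher in Low than in High. In those comparisons 89.7% and 89.8% of all genes passed, most of them as higher in Low. The median log2 difference for Low against Control was 0.48 over the set and 0.53 over all genes, so that 3 of 10 genes lay above the median of all genes. In the TPM column only Bcas1 passed, with 0.45 for Low against Control (SE 0.15, adjusted p = 0.0330) and 0.57 for Low against High (SE 0.15, adjusted p = 0.00921), where 25.4% and 25.2% of all genes passed. For High against Control 0 of 10 passed in either column.

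Many of the genes were high or low together in single rats. In High 68 all 10 genes lay under the mean of the High group, by 0.13 for Cspg4 to 1.01 for Enpp6 on the log2 scale, and 8 of 10, all but Pdgfra and Cspg4, were the lowest of the 8 High rats. Over all genes tested, 22.4% were lowest in High 68. The summed scaled coverage of 20 mature myelin genes was 3292 in High 68 and 4463 to 8118 in the other 7 High rats, and 19 of the 20 were lowest there. In High 66 and High 67 all 10 genes lay above the mean of the group. In High 66, 7 of 10 were the highest of the High rats, where 21.98% of all genes tested were highest and 1.98% lowest. How many of all genes lay above the group mean in these rats was not tested. In Low 63, 7 of 10 were the highest of the Low rats, Enpp6 at 10.3 against 3.12 to 5.59 and Myrf at 62.3 against 32.4 to 49.2, and the summed myelin genes were at 10129 against 5475 to 7698. Over all genes 11.4% were highest in Low 63.

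Control 49 and Low 57 showed another pattern. Both had the lowest value of their group for the same 6 genes, Pdgfra, Cspg4, Olig2, Gpr17, Enpp6 and Myrf, where 49.2% of all genes were lowest in Control 49 and 33.7% in Low 57. Gpr17 was lower than the group mean by 1.61 on the log2 scale in each. Olig1 was at 110 and 113 there, close to the medians of 109, and Bcas1 at 169 and 183 was above the medians of 163 and 180. Summed myelin genes, at 6676 and 7269, were near the medians of 6618 and 7194. Of the other 16 precursor genes listed below, 15 were found by name, and 11 of those were lowest in Control 49 and 12 in Low 57. Other lists were low there too: the summed astrocyte markers were 2608 in Control 49 against 3060 to 3988 in the other Control rats, the endothelial markers 31.0 against 45.5 to 62.2 and the receptors 461 against 557 to 672, and the neuron, mural cell and fibroblast sums were also lowest there. Low 57 was lowest of Low for the astrocyte, endothelial and receptor sums. What set these libraries apart was not tested.

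**Figure D3:**
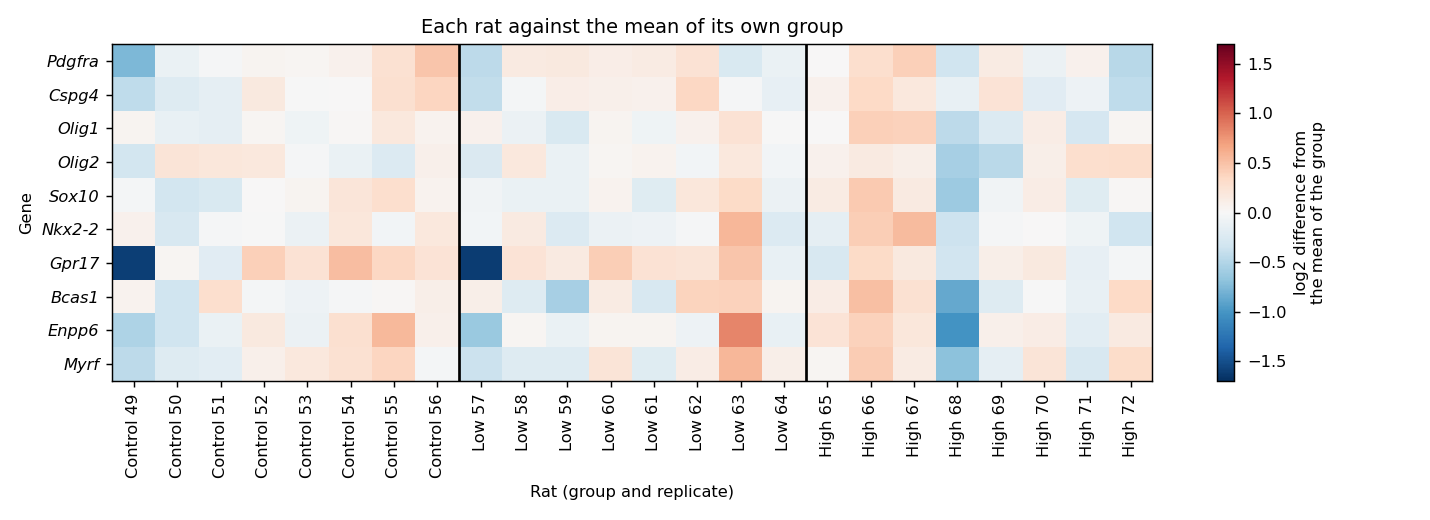
Difference of each rat (x axis) from the mean of its own group on the log2(scaled coverage + 1) scale (colour) for each gene (y axis). Gpr17 is 1.61 under the group mean in Control 49 and Low 57, the column of High 68 is blue for all 10 genes and the columns of High 66 and High 67 are red for all 10.

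After removal of the group means, all 45 pairs of genes had a positive correlation over the 24 rats, with a median r of 0.46. The precursor genes Pdgfra and Cspg4 varied together (r = 0.89), as did Sox10 and Myrf (r = 0.86), Olig1 and Sox10 (r = 0.85) and Enpp6 and Myrf (r = 0.87). Between Pdgfra and Bcas1 the correlation was 0.08 and between Pdgfra and Olig1 it was 0.19. The genes did not sort by step throughout, since Gpr17 had 0.71 with Pdgfra and 0.06 with Bcas1, and Olig2 had 0.01 with Cspg4 and 0.47 with Bcas1. Among Olig1, Sox10, Bcas1 and Myrf the 6 pairs ranged from 0.69 to 0.86. The points share the library and its scaling, and these values are given as a description.

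Some of these relations rested on the libraries that stood apart. Without Control 49 and Low 57 (22 rats), Pdgfra and Cspg4 kept r = 0.85 and Sox10 and Myrf had 0.92, while Pdgfra and Gpr17 went from 0.71 to 0.36. Gpr17 and Sox10 went the other way, from 0.33 to 0.73, and Gpr17 and Olig1 from 0.15 to 0.64. Without High 68 as well (21 rats) the 6 pairs among Olig1, Sox10, Bcas1 and Myrf ranged from 0.62 to 0.88, and 36 of 45 pairs were positive. In that set of rats Olig2 had r from -0.47 with Cspg4 to 0.27 with Bcas1, with -0.20 to Sox10 and 0.11 to Olig1. Pdgfra had -0.19 with Myrf and 0.86 with Cspg4.

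**Figure D4:**
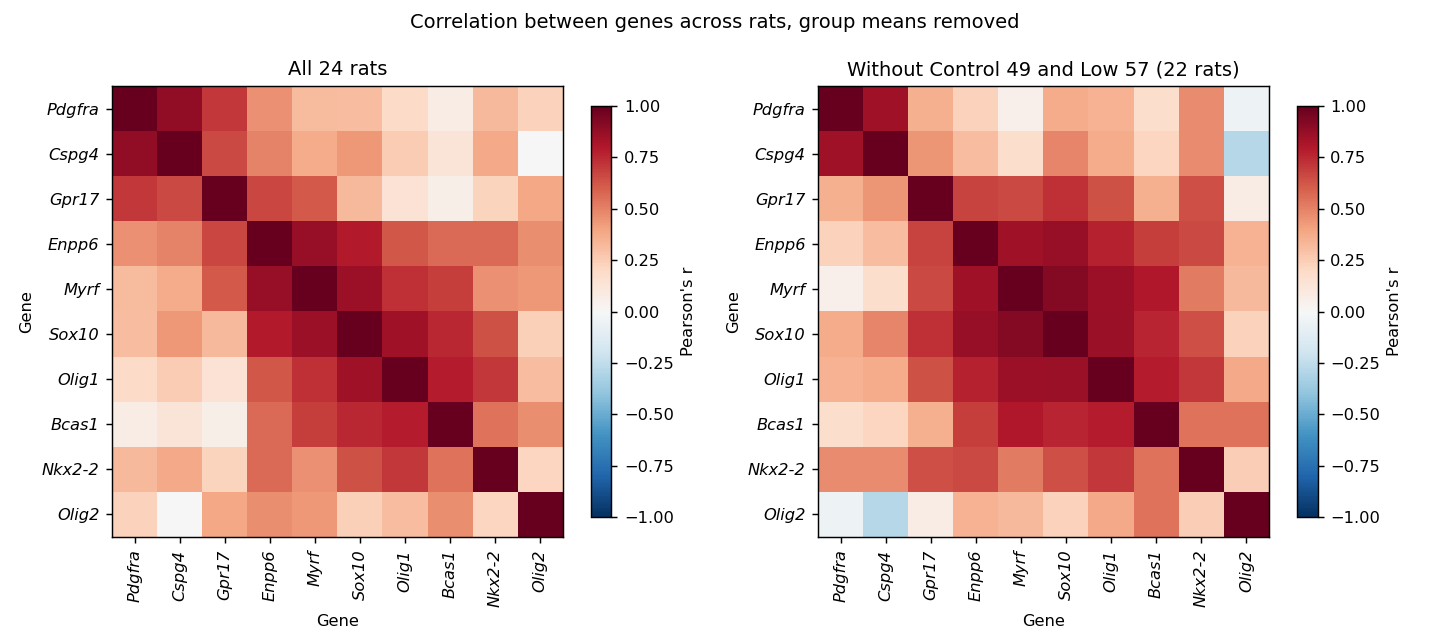
Pearson's r between each pair of genes across rats (colour, both axes list the genes), on the log2(scaled coverage + 1) scale with group means removed, for all 24 rats and for the 22 rats without Control 49 and Low 57. Pdgfra and Cspg4 form a dark square in both panels (0.89 and 0.85), as do Enpp6, Myrf, Sox10, Olig1 and Bcas1, and Gpr17 pairs with Pdgfra in the left panel (0.71) and with Sox10 in the right (0.73).

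The genes outside the set that varied most like the mean of the 10 were Frmd4b (r = 0.93), Pkp4 (0.92), Mtmr10 (0.91), Map7 (0.91) and Serinc5 (0.91). Bcas1 was nearest to Mbp (0.93), the myelin basic protein, Sox10 to Cnp (0.92), another myelin protein, and Myrf to Tmem88b (0.96), Ermn (0.94) and Sema4d (0.94). Pdgfra was nearest to Plxnb2 (0.94) and Cspg4 to Tmcc2 (0.93), with the microglial receptor gene Csf1r (0.93) next. Gpr17 was nearest to LOC108348175 (0.98), Kif13b (0.97) and Soga1 (0.97), Enpp6 to Col9a3 (0.91), Olig1 to Slc6a9 (0.89), Olig2 to Ddit4 (0.85) and Nkx2-2 to Stard5 (0.76). The summed mature myelin genes had r = 0.88 with Sox10, 0.87 with Olig1, 0.86 with Bcas1 and 0.85 with Myrf, but 0.01 with Pdgfra and 0.09 with Cspg4. The summed other precursor genes had r = 0.84 with Pdgfra, 0.83 with Cspg4 and 0.88 with Gpr17, and -0.01 with Bcas1. This was not particular to the lineage: Pdgfra had 0.90 with summed astrocyte, 0.75 with microglia and 0.73 with fibroblast markers. For Cspg4 these were 0.82, 0.81 and 0.71, and for Gpr17 0.56, 0.38 and 0.30. Gpr17 had 0.73 with endothelial markers and 0.82 with the receptors. With neuron markers the 3 genes had -0.14, -0.09 and 0.17. All are over 24 rats with group means removed. They include Control 49 and Low 57, in each of which Gpr17 lay 1.61 under the group mean on the log2 scale. How far the nearest genes and the correlations with lists rest on those libraries was not tested.

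In the Control and High tables each of the 10 genes is also listed as a locus assembled from the reads on the same strand, which gives another estimate for that comparison. For Olig1 and Olig2 it is no separate estimate in Control 52, Control 53 and High 71, where 1 locus stood for both genes. For Cspg4 the locus had the coverage of the reference gene in 16 of 16 tables to within 10%, for Nkx2-2 and Gpr17 in 15 and for Olig2 in 13. It held in 8 tables for Sox10, in 6 for Myrf and in 1 for Enpp6, whose median ratio of locus to gene was 1.54. For Bcas1 it held in 3 tables, with ratios of locus to gene from 0.137 to 1.28, and for Olig1 the ratio was 0.0400 in Control 49. With assembled loci 0 of the 10 genes and 0 of 14524 genes passed for High against Control (595 at an unadjusted p under 0.05). The log2 difference was -0.33 (SE 0.27) for Gpr17, -0.66 (SE 0.32) for Enpp6, -0.59 (SE 0.54) for Bcas1 and 0.78 (SE 0.57) for Olig1. The value of Olig1, the only 1 of the 10 that was positive, includes the 3 tables with a shared locus and Control 49. The negative values include low ratios too. The ratio was 0.386 for Gpr17 in High 66 and 0.229 for Enpp6 in High 67. For Bcas1 it was 0.256 to 0.364 in Control 49, Control 53 and Control 54. In High 66, High 67, High 70 and High 71 that of Bcas1 was 0.137 to 0.288. How far these ratios moved the differences was not tested.

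Other genes of the pathway and markers of other cell types were taken from 13 lists, with 126 entries tested. For Low against Control 4 of the 126 were called, all lower in Low, where 6.11% of all genes were called. For Low against High 2 were called as higher and 4 as lower, where 11.7% of all genes were called. For High against Control 0 were called. Of 14 other precursor genes tested, 0 passed for either dose against Control, and 1 passed for Low against High: Sox8, a relative of Sox10, was at 30.2 ± 3.37 in Low and 24.6 ± 3.42 in High (log2 difference 0.29, SE 0.09, adjusted p = 0.0366, n = 8). Their median log2 difference for High against Control was -0.19 with 11 of 14 negative. Of 12 genes of committed and premyelinating cells, 0 passed in any comparison. Their medians were 0.06 for Low against Control and -0.07 for High against Control.

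Of 20 mature myelin genes, 2 passed for Low against Control and the same 2 for Low against High, and 0 for High against Control. Both were lower in Low. Gjb1, the gap junction protein connexin 32, was at 7.205 ± 3.92 in Low and 14.5 ± 2.37 in Control (log2 difference -1.06, SE 0.23, adjusted p = 0.00535). Aspa, which splits N-acetylaspartate, was at 6.27 ± 0.493 in Low and 9.83 ± 1.58 in Control (log2 difference -0.57, SE 0.11, adjusted p = 0.00121). Against High the log2 differences of these genes were -0.98 and -0.46. They went against their list, of which 16 of 20 were positive for Low against Control with a median of 0.11. For High against Control 19 of 20 were negative with a median of -0.11, where all genes had -0.03. High 68 was the lowest High rat for 19 of the 20, with a sum of 3292 against 4463 to 8118 in the others. How far the common sign rested on that rat was not tested for this list.

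Among 12 ligands that act on the lineage 1 passed in 1 comparison: Pdgfa, the ligand of Pdgfra, was at 26.9 ± 2.17 in Low and 23.5 ± 1.25 in High (log2 difference 0.19, SE 0.05, adjusted p = 0.0166). Its log2 differences from Control were 0.12 for Low (SE 0.05, adjusted p = 0.201) and -0.07 for High (SE 0.05, adjusted p = 0.999). Among 15 receptors, Adgrg1, an adhesion receptor that keeps precursors dividing, was lower in Low, at 58.9 ± 12.3 against 89.2 ± 14.6 in Control (log2 difference -0.60, SE 0.13, adjusted p = 0.00389) and 88.5 ± 17.1 in High (log2 difference -0.58, SE 0.13, adjusted p = 0.00379). The other 14 receptors passed in no comparison. Of 6 inhibitors of differentiation (Id and Hes genes) and 6 genes of dividing cells that could be tested, 0 passed in any comparison. Hes1, an effector of Notch, had the smallest p of the inhibitors, with a log2 difference of 0.37 for Low against High (SE 0.15, adjusted p = 0.0984).

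Of the markers of other cell types, 1 passed in any comparison. Of 9 astrocyte, 7 microglia, 7 neuron, 4 endothelial and 6 fibroblast markers tested, 0 passed in any comparison. Of 8 mural cell markers 1 passed, Pdgfrb, at 7.74 ± 1.38 in Low against 13.0 ± 2.40 in Control (log2 difference -0.68, SE 0.13, adjusted p = 0.000902) and 12.6 ± 2.20 in High (log2 difference -0.64, SE 0.13, adjusted p = 0.00136). The median log2 differences for Low against Control were -0.01 for astrocyte, 0.10 for microglia, 0.12 for neuron, 0.08 for endothelial, -0.15 for mural cell and -0.43 for fibroblast markers. All 6 fibroblast markers were negative in each of the 3 comparisons, and their summed scaled coverage lay between 57.5 and 147 for Control, between 39.6 and 112 for Low and between 36.4 and 129 for High. Their part in the values of Cspg4 and Pdgfra, which cells around vessels can also express, was not tested.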

How the data were processed

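Total RNA of frontal cortex was sequenced as stranded libraries of polyadenylated RNA, and the authors deposited 1 gene table per rat. The submitters' processing notes name FastQC, Trimmomatic, TopHat2 and StringTie without versions, and the build mRatBN7.2. Positions are those of the tables, whose build was not checked against a genome here. The coverage that the authors deposited is a signal: how often each base of a gene was read on average, before any correction for sequencing depth. FPKM, also deposited, corrects for length and sequenced bases. Only in tables of Low rats does the deposited TPM add up to 1000000. In those of Control and High, where assembled loci are also listed, the TPM column as deposited by the authors exceeds that total and was treated as a score. The label of the extraction speaks of cell lines of the cortex, while the study's methods name tissue.

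Entries of 1 gene identifier were added up and expressed per 1000000 of the coverage of all 32883 reference genes. The filter kept 15644 genes whose mean was 1 or more, all 10 genes of the set among them. A single model over the 3 groups was fitted by limma 3.58.1 (trend, robust) in R 4.3.3 to log2(value + 1). Tests were two-sided, with Benjamini-Hochberg adjustment over all genes and a threshold of 0.05. This scale understates the change of low genes. Nothing in the tables gives counts, so no interval for counting error is given. Assembled loci were matched to reference genes on the same strand by overlap. The genes, the lists and the tests were chosen with earlier results of these data known. Named from each list were the genes past the threshold (at most 4 per comparison) or else those with the smallest p. Values of 1 listed gene are not reported here, while counts and medians include it. Genes like the set were the 5 nearest to its mean and up to 3 nearest to each gene. Genes mentioned outside these rules for their overlap with the set were named after their values were seen. Limma and the exact Wilcoxon tests were tested on simulated data. Alternatives were a pseudocount of 0.1, no filter, a minimum mean of 5, no scaling, median-of-ratios scaling, a sum without mitochondrial genes, the FPKM and TPM columns, only the groups compared, libraries 56 to 62 as a covariate, exact Wilcoxon rank-sum tests and each rat left out. The fit without Control 49 and Low 57 and the fit of assembled loci were added after seeing the data. Python 3.11.15, pandas 2.3.3, scipy 1.17.1 and matplotlib 3.10.9 were used.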

Additional observations from a re-analysis of the deposited data

Results flagged for a closer look

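In the 8 Low rats, 3 values of single genes stood apart from the rest of their group by Dixon's criterion. Gpr17 was at 7.29 in Low 57, against 22.3 to 34.1 in the other 7. Enpp6 was at 10.3 in Low 63, against 3.12 to 5.59, and Nkx2-2 at 7.69 in the same rat, against 3.99 to 5.52. The summed scaled coverage of the other precursor genes was 305 in Low 57, against 391 to 450. The criterion was applied to 69 sets of 8 rats, 30 of single genes and 39 of summed lists, and chance alone would mark about 3.45 of them. Gpr17 in Control 49, at 8.41 against 24.1 to 40.3, did not pass the criterion.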

How the results depend on the processing

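No paired analysis was possible because the groups share no replicate numbers. The count of 0 of 10 genes called held in all 3 comparisons under every alternative that used coverage, with each of the 24 rats left out, and with exact Wilcoxon tests. The columns that differed were FPKM, with 9 genes called for Low against Control and 9 for Low against High, and TPM, with 1 and 1. With a minimum mean of 5, Nkx2-2 could not be fitted.

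Over all genes, 956 were called for Low against Control with the settings of the report, 556 with a minimum mean of 5, 1759 with a sum without mitochondrial genes, 12393 with FPKM, 3952 with TPM, 535 with only the groups compared, 361 with libraries 56 to 62 as a covariate and 372 with exact Wilcoxon tests. For Low against High, 1828 were called, and under the same settings 1192 with a minimum mean of 5, 12410 with FPKM, 3927 with TPM, 354 with the covariate, 4514 without Control 49 and Low 57 and 1147 with exact Wilcoxon tests. For High against Control the only count above 0 was 390, without both those rats. With each rat left out the counts were 676 to 1224 for Low against Control, 1266 to 2676 for Low against High and 0 throughout for High against Control. Another scaling shifted the share of calls that were higher in Low, for Low against High from 45.4% to 22.3% (median-of-ratios), 7.88% (no scaling) or 57.0% (sum without mitochondrial genes), and for Low against Control from 20.1% to 48.8% (sum without mitochondrial genes) or 7.36% (no scaling).

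None of the following values with another sign passed the threshold except Pdgfra, Cspg4 and Enpp6 with FPKM. For Low against Control the log2 differences with another sign than in the report were, with a pseudocount of 0.1 Nkx2-2 -0.00040, with no scaling Olig1 -0.022 and Nkx2-2 -0.031, with median-of-ratios scaling Olig1 -0.045 and Nkx2-2 -0.047, with a sum without mitochondrial genes Cspg4 0.011, with the FPKM column Pdgfra 0.39, Cspg4 0.39, Gpr17 0.046 and Enpp6 0.44, with the TPM column Pdgfra 0.0051, Cspg4 0.075, Nkx2-2 -0.035 and Enpp6 0.13, with libraries 56 to 62 as a covariate Enpp6 0.14. For High against Control the log2 differences with another sign than in the report were, with no scaling Pdgfra 0.096, Cspg4 0.074, Olig1 0.11, Olig2 0.11, Sox10 0.058, Gpr17 0.019, Bcas1 0.058 and Myrf 0.12, with the FPKM column Gpr17 0.23, with the TPM column Gpr17 0.24, with assembled loci Olig1 0.78. For Low against High the log2 differences with another sign than in the report were, with no scaling Cspg4 -0.12, Olig1 -0.13, Olig2 -0.076 and Bcas1 -0.018, with median-of-ratios scaling Cspg4 -0.0038 and Olig1 -0.0090, with the FPKM column Pdgfra 0.42, with the TPM column Pdgfra 0.041, with libraries 56 to 62 as a covariate Cspg4 -0.083 and Gpr17 0.022, with Control 49 and Low 57 both left out Pdgfra 0.058 and Gpr17 0.22. With single rats left out the sign changed at least once for Low against Control Cspg4 (-0.075 to 0.047), Olig1 (-0.022 to 0.049), Nkx2-2 (-0.079 to 0.036), Gpr17 (-0.40 to 0.056) and Enpp6 (-0.14 to 0.066), for High against Control Olig2 (-0.12 to 0.0083) and Myrf (-0.12 to 0.038) and for Low against High Pdgfra (-0.072 to 0.058) and Gpr17 (-0.079 to 0.22). The cause of these changes was not tested. Without Control 49 the difference of Gpr17 for Low against Control was -0.40, and without Low 57 it was 0.06. The depth of each library is unknown, and the intervals in the report set the size of difference that 8 rats per group could show.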
